A study of Mus musculus with 5 samples.

Results

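The cholangiocyte and progenitor markers are 10 genes used to mark bile duct epithelium and the liver progenitor cells related to it. These are Krt7, Krt19, Krt8, Krt18, Sox9, Epcam, Cd24a, Prom1, Dmbt1 and Wfdc2. Hepatocytes make Krt8 and Krt18 too, so these are not particular to ducts. The 10 genes were chosen by name, among 19752 genes that could be named on the array. They had 12 of the 55681 probes; 11 of these 12 passed the filter on dim probes, and all 10 genes were tested. Their messenger RNA was measured in livers of mice with hepatocyte-restricted overexpression of Fra-1, a FOS-family subunit of the transcription factor AP-1, and of C57BL/6J wild-type controls.

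All mice were aged 26 to 28 weeks and had been on a high-fat diet (45% of kcal from fat) from week 4 of life. On 4 arrays (2-colour Agilent), liver RNA of 1 Fra-1hep mouse each (mice 1 to 4, on C57BL/6J) carried Cy5 and RNA pooled from 5 control mice carried Cy3. A further array had the dyes the other way round, the control pool in Cy5 and pooled Fra-1hep RNA in Cy3. The sources used here do not name the mice of that Fra-1hep pool, so it may add no animals, nor the promoter that drives Fra-1 in hepatocytes. The control pool is a single sample, and the tests leave out the spread among control mice.

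Bile ducts are lined by cholangiocytes, which carry the simple epithelial keratin pairs of ducts on top of those that hepatocytes also make. Hepatocytes contain only KRT8 and KRT18, whereas KRT7 and KRT19 are absent from normal hepatocytes. In injured liver, small ductular cells with progenitor features can expand, and SOX9, EPCAM, CD24 and CD133 (the product of Prom1) are commonly used to find them. Whole liver was measured, so that fewer cells of a type and less RNA per cell cannot be told apart.

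Ratios are log2 of Fra-1hep over control on each array, after background correction and loess normalization, and are given for mice 1, 2, 3, 4 and the swapped pool in that order. The fitted change is the limma coefficient for genotype with a term for dye. It weighs the swapped array as much as the 4 mice together and is given ± its standard error with the p-value adjusted over all 21494 features tested (limma, Benjamini-Hochberg). Levels are log2 intensities of the channel and are compared between groups within a probe, or summed over the same probes of a marker list in both channels. On each array the Fra-1hep channel was well above background at 45.8% to 53.6% of probes and the control channel at 46.3% to 60.5%. The array of mouse 1 had the highest share in both and was alone on its slide, with the other 4 arrays on a second slide. The only Fosl1 probe, which would check the label, was above background in the Fra-1hep channel on 0 of 5 arrays and in the control channel on 1 of 5, so the overexpressed gene could not be checked with it; the sources used here do not say whether this probe lies within the transgene. Of the hepatocyte markers, 12 of 12 were above background on at least 1 array.

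Of the 10 markers, 2 fell in Fra-1hep livers and the other 8 did not pass the adjusted threshold of 0.05. Over all features, 26.6% passed in either direction, 15.4% as lower and 11.2% as higher, so a count of 2 in 10 is near the background. The size of the 2 falls stood apart from most of the array: both exceeded 4-fold, which 0.205% of all features did while passing as lower. With the normalization used here, all 5 arrays had 1 sign in 3 of the 10 markers (Cd24a, Dmbt1 and Wfdc2) and in 35.7% of all features. In the deposited table Krt8 and Krt18 had 1 sign as well, and the share of all features was not counted there. The median fitted change of the 10 markers was 0.05 against -0.00 over all features.

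Dmbt1 and Wfdc2 encode secreted proteins of epithelial surfaces. DMBT1 is a large scavenger-receptor glycoprotein of mucosal fluids and bile, and WFDC2, also called HE4, is a small protein of the whey acidic protein family. Dmbt1 had ratios of -2.79, -2.99, -2.41, -2.78 and -2.77, and its fitted change was -2.76 ± 0.10, a 6.77-fold fall with an adjusted p of 1.81e-05 (limma). Every array lay on the same side, and the lowest control level of 9.47 was above the highest Fra-1hep level of 7.20. The Fra-1hep signal cleared the background on the 4 mouse arrays but not on the swapped array. The size of the Dmbt1 fall depends on how background is treated: with Agilent's processed signals, as in the deposited table, the fitted change was -4.39, and the deposited ratios were -3.56, -4.19, -3.64, -3.59 and -5.04.

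Wfdc2 had ratios of -2.11, -2.15, -2.23, -2.22 and -2.23. Its fitted change was -2.21 ± 0.05, a 4.61-fold fall with an adjusted p of 3.84e-06 (limma). The 4 mice differed by an SD of 0.06, and control levels of 11.73 to 12.06 stood clear of Fra-1hep levels of 9.50 to 9.95. A second Wfdc2 probe gave ratios of -2.22, -2.36, -2.18, -2.37 and -1.92 and a fitted change of -2.10 ± 0.06, so both probes fell on all 5 arrays. Among 2504 named genes that fell, Wfdc2 ranked 27 by size.

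**Figure D1:**
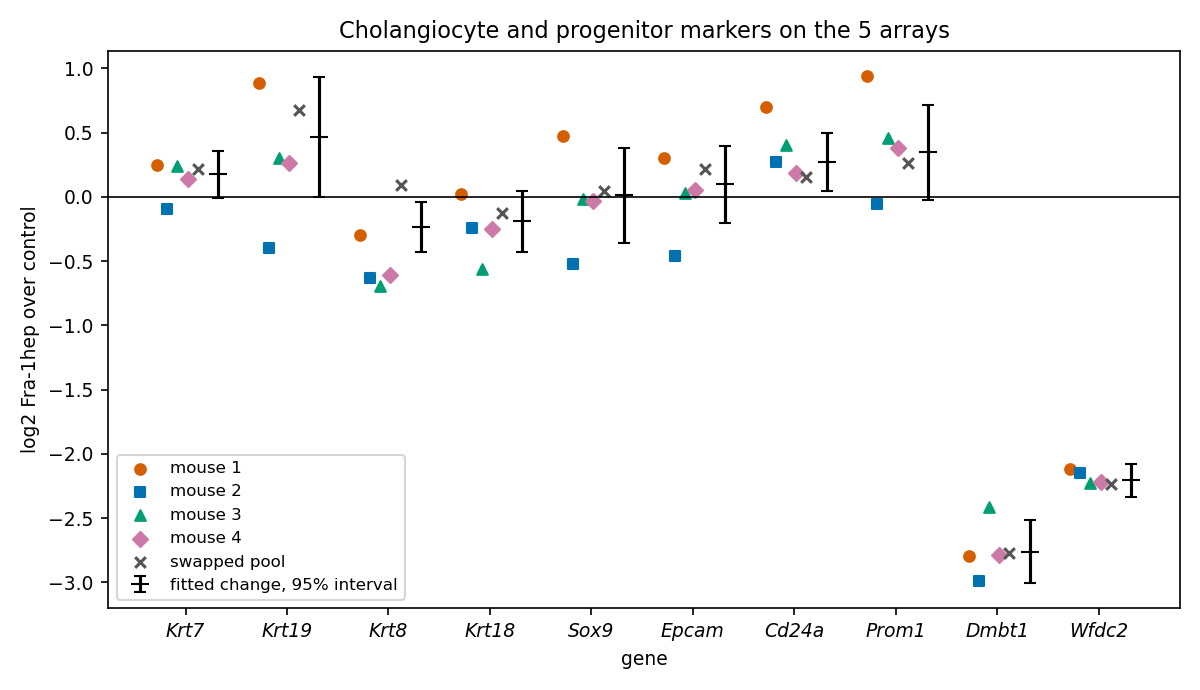
Log2 ratio of Fra-1hep over control for the 10 markers, with 1 symbol for each of mice 1 to 4 and for the swapped pool, and the fitted change with its 95% interval beside them. Dmbt1 and Wfdc2 sit between -2.99 and -2.11 on all 5 arrays, while the other 8 genes lie between -0.69 and 0.94.

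The hepatocyte keratins Krt8 and Krt18, whose products pair into the filaments of hepatocytes and ducts alike, had fitted changes below 0 that did not pass. Krt8 ratios were -0.29, -0.63, -0.69 and -0.61 in the mice and 0.09 on the swapped array. The mice and the swapped pool thus differed in sign. In the deposited table Krt8 was below 0 on every array (-0.19, -0.52, -0.49, -0.46 and -0.03), so the sign of the swapped array depends on the processing. With the normalization used here, the fitted change of Krt8 was -0.23 ± 0.08 (95% interval -0.43 to -0.04, adjusted p = 0.0784, limma). Its call depends on the arrays used: without the swapped array the change was -0.56 (adjusted p = 0.00176, limma on the 4 mice), with no dye term -0.43 (adjusted p = 0.0243), and without mouse 1 -0.28 (adjusted p = 0.0168). Krt18 ratios were 0.02, -0.25, -0.56, -0.25 and -0.13, with a fitted change of -0.19 ± 0.10 (95% interval -0.43 to 0.05, adjusted p = 0.203, limma). The deposited ratios of Krt18 were -0.13, -0.42, -0.68, -0.37 and -0.04. Mouse 1 was highest among the mice for both genes.

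The duct keratins Krt7 and Krt19 had fitted changes above 0 that did not pass. Krt7 ratios were 0.25, -0.09, 0.24, 0.14 and 0.22, and the fitted change was 0.18 ± 0.08 (95% interval -0.01 to 0.36, adjusted p = 0.138, limma). Krt19 ratios were 0.88, -0.40, 0.30, 0.26 and 0.67, and the fitted change was 0.47 ± 0.20 (95% interval -0.00 to 0.94, adjusted p = 0.126, limma). In both genes mouse 2 alone lay below 0. For Krt7, which is dim, the fitted change was 0.33 with offset 0 (adjusted p = 0.123) and 0.75 with Agilent's processed signals (adjusted p = 0.0607); its deposited ratios were 0.59, -0.22, 0.83, 0.40 and 1.11. Without mouse 2, Krt7 reached 0.21 (adjusted p = 0.0459, limma) and Krt19 reached 0.58 (adjusted p = 0.0187). Without the swapped array Krt19 was 0.26 (adjusted p = 0.29).

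Sox9, a transcription factor of duct and progenitor cells, had ratios of 0.48, -0.52, -0.02, -0.04 and 0.05. The fitted change was 0.01 ± 0.16 (95% interval -0.36 to 0.38, adjusted p = 0.968, limma), an interval that holds changes of either sign. Without mouse 1 it was -0.072, and without the swapped array -0.023. The Sox9 probe was printed in 10 spots on each array, which show how well each ratio was read. The spots of mouse 1 ran from 0.27 to 0.63 (SD 0.12) and those of mouse 2 from -0.62 to -0.30 (SD 0.10), so the arrays of these mice did not overlap spot by spot. Spots on 1 array share the RNA and the labelling, and their spread is technical.

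**Figure D2:**
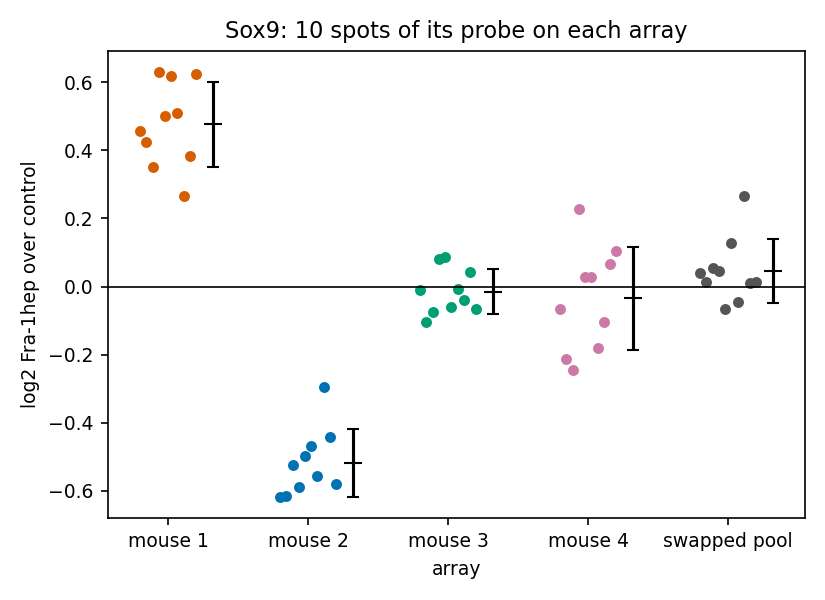
Log2 ratio of Fra-1hep over control of each of the 10 Sox9 spots on each array; the bar beside the points is the mean ± SD over spots. The spots of mouse 1 average 0.48 and those of mouse 2 average -0.52, with the other 3 arrays around 0.

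Epcam, Cd24a and Prom1 encode surface proteins by which duct and progenitor cells are often sorted. Epcam, a cell adhesion molecule of epithelia, had ratios of 0.30, -0.46, 0.03, 0.05 and 0.21 and a fitted change of 0.10 ± 0.13 (95% interval -0.20 to 0.40, adjusted p = 0.613, limma). In mouse 2 its Fra-1hep signal did not clear the background. The deposited ratios of Epcam, made with another background correction and normalization, were 0.76, -1.82, 0.14, 0.14 and 0.61; its fitted change was 0.21 on those values and 0.15 with offset 0. Cd24a, a small glycosylated surface protein that blood cells carry too, had ratios of 0.70, 0.27, 0.40, 0.18 and 0.15. All 5 were above 0, but the fitted change of 0.27 ± 0.10 (95% interval 0.04 to 0.50) had an adjusted p of 0.0808 (limma). It passed on the 4 mice alone (0.39, adjusted p = 0.0132) and with no dye term (0.34, adjusted p = 0.0184).

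Prom1, which encodes the membrane-protrusion glycoprotein CD133, had ratios of 0.94, -0.05, 0.46, 0.38 and 0.26. The fitted change was 0.35 ± 0.16 (95% interval -0.03 to 0.72, adjusted p = 0.149, limma), and it passed without mouse 2 (0.43, adjusted p = 0.0366) and with no dye term (0.40, adjusted p = 0.0428); with Agilent's processed signals it was 0.59 (adjusted p = 0.12). A second Prom1 probe was above background on only 1 of 5 arrays in each channel and was not tested. Its ratios were 0.01, -0.01, 0.16, 0.16 and 0.05. Its deposited ratios were 0.29, 0.20, 0.80, 0.19 and 0.20, so the values of this dim probe depend on the processing.

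Fra-1 acts in AP-1 dimers, so the promoters of the markers were read for the letters TGANTCA, where N is any base. This pattern is looser than the AP-1 consensus, which has C or G in the middle. RefSeq promoter windows (250 bases before to 50 after the start, GRCm38.p6) were on hand for 6 of the 10 genes (Krt7, Krt8, Krt18, Epcam, Prom1 and Wfdc2), with 8 windows in all. The Wfdc2 windows start at bases 164562465 and 164562466 and overlap, so the 8 windows are not all separate promoters. The letters TGANTCA, searched on both strands, occurred in 2 of the 8 windows, both of Prom1, and in 7.81% of 32851 windows of the same length. The match begins at position -88 from the start in the Prom1 window printed here, where it reads TGACTCA. In the other Prom1 window it begins at position -189 and reads TGAATCA, which is not the consensus. The Wfdc2 window is shown because that gene fell, and Krt8 and Krt18 because their products pair and their windows differ: TATAAA, present in 13.6% of all windows, occurred in that of Krt8. The Krt8 matches begin at positions -3 and -1, so they lie over the annotated start and not upstream of it. Sequences run 5′ to 3′ on the gene's strand, and capitals mark TGANTCA in Prom1 and overlapping TATAAA matches on both strands in Krt8. A match describes letters and does not show binding, and windows without one say nothing of the factor.
Wfdc2, chr2:164562465-164562764, plus strand: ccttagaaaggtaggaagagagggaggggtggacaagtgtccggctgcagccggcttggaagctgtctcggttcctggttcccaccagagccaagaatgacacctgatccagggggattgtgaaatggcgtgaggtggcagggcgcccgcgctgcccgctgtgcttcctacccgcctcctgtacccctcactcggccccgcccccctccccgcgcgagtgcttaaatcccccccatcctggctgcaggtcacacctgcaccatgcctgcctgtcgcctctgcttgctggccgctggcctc
Prom1, chr5:44101687-44101986, minus strand: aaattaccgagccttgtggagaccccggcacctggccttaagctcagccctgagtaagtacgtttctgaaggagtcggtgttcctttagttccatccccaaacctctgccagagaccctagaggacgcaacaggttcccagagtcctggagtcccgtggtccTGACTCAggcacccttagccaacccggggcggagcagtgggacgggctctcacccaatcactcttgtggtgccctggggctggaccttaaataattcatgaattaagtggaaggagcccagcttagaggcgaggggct
Krt8, chr15:102004293-102004592, minus strand: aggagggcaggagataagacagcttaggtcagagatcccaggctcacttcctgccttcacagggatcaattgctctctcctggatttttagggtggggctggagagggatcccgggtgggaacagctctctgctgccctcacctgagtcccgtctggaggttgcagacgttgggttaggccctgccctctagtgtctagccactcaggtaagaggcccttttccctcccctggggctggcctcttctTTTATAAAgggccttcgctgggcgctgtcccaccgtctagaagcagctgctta
Krt18, chr15:102027966-102028265, plus strand: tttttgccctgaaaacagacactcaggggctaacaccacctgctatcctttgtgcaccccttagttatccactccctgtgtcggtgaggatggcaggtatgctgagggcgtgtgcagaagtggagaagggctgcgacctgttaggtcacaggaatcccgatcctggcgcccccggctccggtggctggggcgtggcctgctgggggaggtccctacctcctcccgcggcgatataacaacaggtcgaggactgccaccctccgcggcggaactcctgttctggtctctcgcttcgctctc

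In several markers the 4 mice differed widely from each other. The SD of the 4 ratios was 0.52 for Krt19, 0.41 for Sox9 and for Prom1 and 0.32 for Epcam, where the median among features of like brightness was 0.12 to 0.13. Its median over the 10 markers was 0.24 and over all features 0.12. In these 4 genes the Fra-1hep channel held more of the spread. Over the 4 mouse arrays, Sox9 levels varied with an SD of 0.37 in that channel and 0.05 in the channel of the shared control pool. For Krt19 the SDs were 0.48 and 0.11, for Prom1 0.39 and 0.03, and for Epcam 0.26 and 0.08. The control channel holds the same pool on every array, so its spread holds no difference between animals; the medians over all features were 0.149 and 0.103. In Krt8 the SD was 0.04 in the Fra-1hep channel and 0.15 in the control channel, and in Krt18 it was 0.12 and 0.14.

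**Figure D3:**
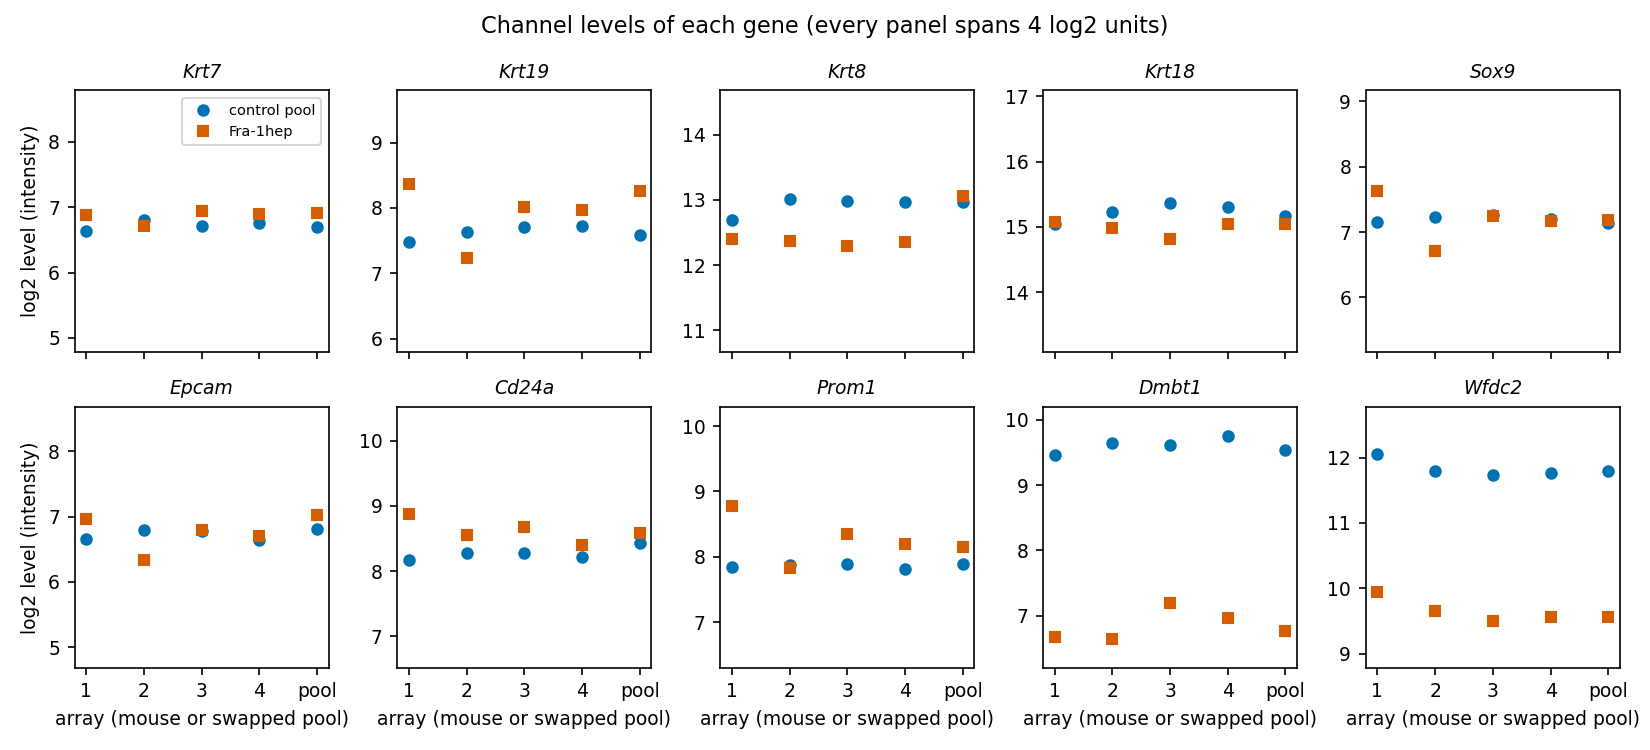
Log2 level of each marker in the Fra-1hep channel (squares) and the control channel (circles) on the arrays of mice 1 to 4 and the swapped pool; every panel spans 4 log2 units, and levels are not compared between genes. In Krt19, Sox9, Epcam and Prom1 the squares spread over the mice while the circles stay nearly level, and in Dmbt1 and Wfdc2 the squares lie below every circle.

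The ratios of the mice kept a similar order across several markers. This order was noticed in the data and then counted, and it is given with no test. Mouse 1 had the highest ratio in 9 of 10 markers and in 27.7% of all features. Mouse 2 had the lowest in 6 of 10 and in 23.3% of all features. Both held for Krt7, Krt19, Sox9, Epcam and Prom1, 5 of 10 markers, and for 10.5% of all features. In the deposited table both held for 7 of 10 markers against 10.8% of all features, and with median centring for 5 of 10 against 7.21%; centring alone raised the share of all features highest in mouse 1 to 40.1%. Mouse 1 and its slide cannot be told apart. The ratios also hold the control channel, the same pool on every array. Its level on the array of mouse 1 was the lowest of the mouse arrays for Krt7, Krt19, Krt8, Krt18, Sox9, Cd24a and Dmbt1. This was not so for Epcam, Prom1 or Wfdc2. For Krt8, Fra-1hep levels were 12.4, 12.37, 12.29 and 12.36 in mice 1 to 4, and control levels 12.69, 13.01, 12.99 and 12.97. The Fra-1hep level of Krt7 was highest in mouse 3. Among mice 2 to 4, which share a slide, mouse 2 was lowest in 6 of 10 markers against 31.1% of all features. The genes were measured in the same RNA, so they are not separate observations of the order.

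Other genes of biliary epithelium were read from a list of 30, of which 25 were tested: 4 rose, 3 fell and 18 did not pass, with a median change of 0.05. Of all features, 11.2% passed as higher and 15.4% as lower, which are the shares to set beside this count and those of the lists below. Anxa13, an epithelial annexin, rose most, by 3.51 ± 0.08 (adjusted p = 2.77e-06, limma), with ratios of 3.58, 3.65, 3.29, 3.39 and 3.53. Cdh1, the adherens junction protein E-cadherin, rose by 0.88 ± 0.10, and Slc10a2, the apical bile acid carrier of ducts and ileum, by 0.61 ± 0.11. Clu, a secreted chaperone that hepatocytes make too, fell by 0.44 ± 0.06, Tm4sf4 by 0.32 ± 0.06 and the water channel Aqp1 by 0.48 ± 0.12. Clu did not pass on the 4 mice alone (-0.13, adjusted p = 0.0852, limma). Aqp1 ratios were -0.59, 0.08, -0.21, -0.46 and -0.67, so mouse 2 lay above 0. Cftr, the chloride channel of duct cells, was not above background on enough arrays to be tested. Without mouse 2 the count that rose went from 4 to 7.

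The order of the mice recurred in part of this list. Spp1, which encodes osteopontin and is strong in ducts, had ratios of 0.48, -1.14, -0.24, -0.31 and -0.28, with a fitted change of -0.29 ± 0.25 (adjusted p = 0.423, limma); it was -0.15 without mouse 2 and -0.42 without mouse 1. Of the 25 genes, mouse 1 was highest in 15, mouse 2 was lowest in 12, and both held in 9. Over all features the shares were 27.7%, 23.3% and 10.5%. With median centring the counts were 16, 11 and 8 of 25, against 40.1%, 12.4% and 7.21% of all features. The following examples were chosen after their values were seen. Bicc1 had ratios of 0.73, -0.44, 0.40, 0.26 and 0.30, and Sctr, the secretin receptor of cholangiocytes, 0.88, -0.25, 0.30, 0.23 and 0.45. Pkhd1, the fibrocystin gene of duct cilia, had 0.73, -0.25, 0.27, 0.35 and 0.04, and Cldn7, a tight junction claudin, 0.70, -0.11, 0.25, 0.21 and 0.46. In each of these 4 genes mice 3 and 4 lay between mouse 1 and mouse 2. Anxa13, which passed, had an SD of 0.16 over the mice, and its highest ratio was in mouse 2.

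**Figure D4:**
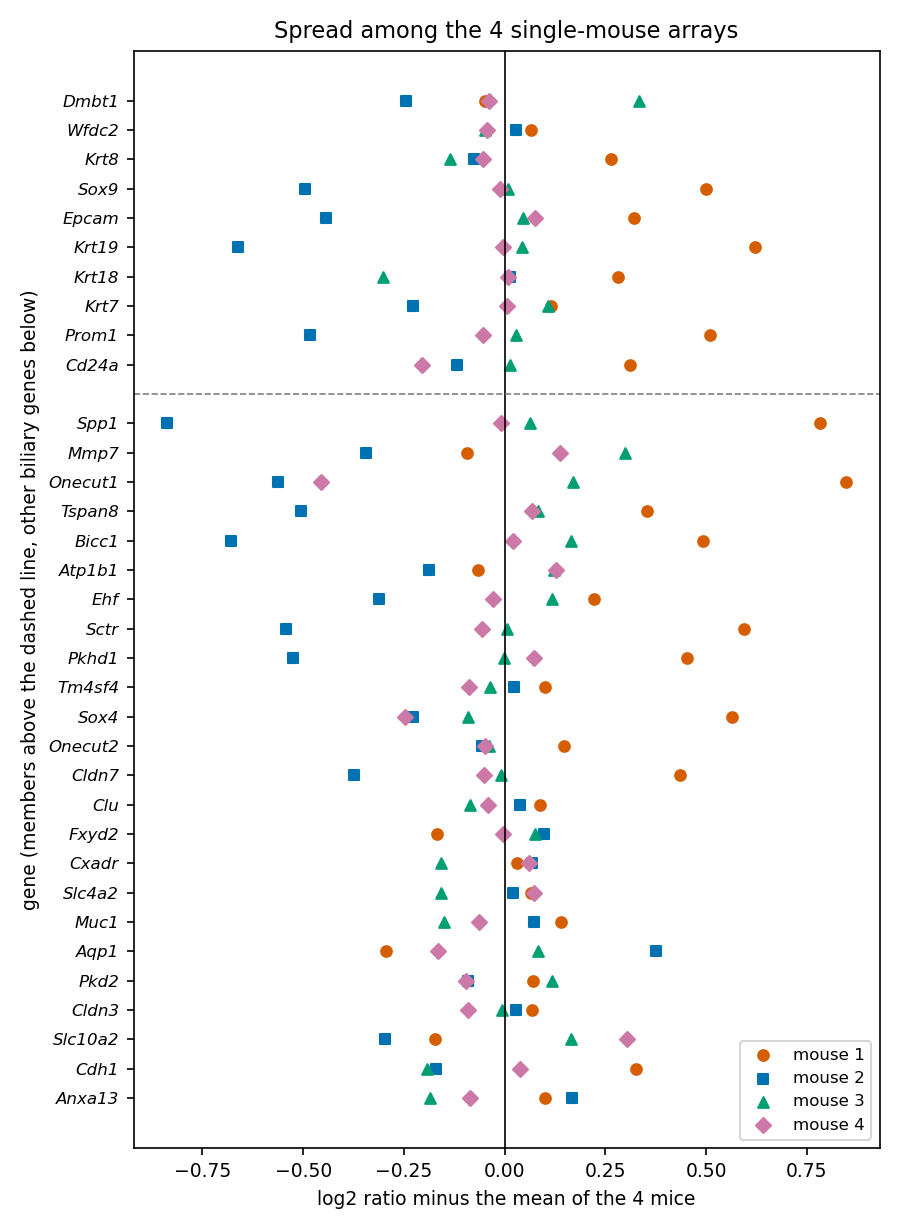
Log2 ratio of each of mice 1 to 4 minus the mean of the 4, for the 10 markers (above the dashed line) and other biliary genes tested (below it, with 1 of the 25 not shown), sorted within each block by the ratio of mouse 2 with the lowest on top. Mouse 1 lies to the right and mouse 2 to the left in Krt19, Sox9, Epcam, Prom1, Spp1, Bicc1, Sctr and Pkhd1, while Wfdc2 and Clu show little spread.

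Of 16 listed genes of progenitor cells and the ductular reaction, 12 were tested; 1 rose, 5 fell and 6 did not pass, with a median of -0.19. Itga6, the laminin receptor subunit that marks progenitor and basal cells, rose by 1.68 ± 0.06 (adjusted p = 1.74e-05, limma). Cd44, the hyaluronan receptor, fell by 0.75 ± 0.09, Cd34 by 0.37 ± 0.08, Afp, the fetal albumin-like protein, by 0.30 ± 0.06, Thy1 by 0.27 ± 0.07 and Kit by 0.35 ± 0.10. The other Cd44 probes gave -0.70 (adjusted p = 0.00466) and -0.15 (adjusted p = 0.0979). The count of falls was 2 with Agilent's processed signals, 2 with an assumed spread of control mice added, and 3 without mouse 3. That spread was taken from the Fra-1hep arrays, since the pooled controls give none.

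Notch signalling directs bile duct formation. In a list of 19 genes, 15 were tested, of which 2 rose, 7 fell and 6 did not pass, with a median of -0.19. Of all features, 11.2% passed as higher and 15.4% as lower. The ligand gene Jag1 fell by 0.40 ± 0.07, and the receptor gene Notch1 by 0.39 ± 0.08. Both calls rest on the swapped array: on the 4 mice alone, Jag1 was -0.17 (adjusted p = 0.0583, limma) and Notch1 -0.07 (adjusted p = 0.454). Mfng, a glycosyltransferase that modifies Notch, fell by 0.33 ± 0.06 with the probe used and by 0.50 ± 0.09 with the other. The receptor gene Notch2 rose by 0.41 ± 0.06 with the probe used, and the other probe gave 0.10 (adjusted p = 0.333). With the assumed spread of control mice added, 3 Notch genes passed as lower.

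YAP, the effector of the Hippo pathway, drives biliary fate in hepatocytes when active. Of 19 genes of this pathway and its targets, 17 were tested; 3 rose, 4 fell and 10 did not pass, with a median of 0.06. Ccn2, a much used YAP target that also responds to TGF-beta, fell by 1.93 ± 0.22 (adjusted p = 0.00162, limma), with ratios of -2.28, -2.51, -1.54, -1.26 and -1.96. Yap1 rose by 0.43 ± 0.06, and Ajuba, a LIM protein that binds LATS kinases, by 0.77 ± 0.13. Tead1, a DNA-binding partner of YAP, fell by 0.64 ± 0.06 with the probe used, whereas the other probe gave -0.07 (adjusted p = 0.569), and the probe used gave -0.28 on the 4 mice alone.

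Of 18 keratins of other epithelia, 9 passed the filter on dim probes; 2 rose and 7 did not pass. Krt20, a keratin of intestinal and urothelial cells, had ratios of 2.31, 0.76, 0.60, 0.90 and 1.66, the highest in mouse 1, and a fitted change of 1.40 ± 0.29 (adjusted p = 0.0144, limma). It met the filter through the Fra-1hep channel alone, since its control channel was well above background on 1 of 5 arrays, so the size of its rise is not settled: it was 2.66 with offset 0 and 4.26 with Agilent's processed signals. With both channels required on all arrays it was not tested. Krt13 rose by 0.23 ± 0.06, but not on the 4 mice alone (0.05, adjusted p = 0.452). With the assumed spread of control mice added, neither passed (adjusted p = 0.0527 for Krt20 and 0.0887 for Krt13, limma), and on the 4 mice alone 4 keratins passed as higher. Without mouse 3 only Krt20 passed as higher, and without mouse 1 2 keratins passed as lower.

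Linker and desmosome proteins anchor keratin filaments at cell junctions. All 13 listed genes were tested; 7 rose, 2 fell and 4 did not pass, with a median of 0.24. Pkp1, 1 of the 2 that fell, met the filter through the control channel alone (4 of 5 arrays); with both channels required on all arrays, 1 of 12 genes fell. Ppl, encoding periplakin, rose by 1.64 ± 0.11 (adjusted p = 0.000133, limma), with ratios of 1.56, 1.20, 1.56, 1.82 and 1.75. Dsg2, a desmosomal cadherin, rose by 0.63 ± 0.06, and Evpl, encoding the related envoplakin, by 0.41 ± 0.06. Dsp, encoding desmoplakin, rose by 0.59 ± 0.06, while its other probe gave 0.19 (adjusted p = 0.133). Over all 6 lists other than the markers, 90 of 113 genes were tested; 19 rose, 21 fell and 50 did not pass, with a median of 0.03, where 11.2% of all features passed as higher and 15.4% as lower. With Agilent's processed signals, which differ in background correction and normalization, the fitted change was 0.46 for Krt13, 1.35 for Ajuba, 0.62 for Evpl, -0.50 for Afp and -0.60 for Notch1. All these lists were chosen with earlier results of these data known.

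Markers of other cells were read beside the duct genes and beside the shares of all features that passed (11.2% as higher, 15.4% as lower). Of the neutrophil markers, 9 of 11 tested rose and 2 did not pass, with a median change of 2.06. Among the 9, Mmp8 and Mmp9 met the filter on dim probes through the Fra-1hep channel alone, their control channel being above background on 0 of 5 arrays. The summed level of the 11 neutrophil markers was 15.48 to 16.32 in Fra-1hep channels and 14.77 to 15.06 in control channels. Csf3r had the highest mean level of them, 14.56 in Fra-1hep and 14.54 in control channels, so the sum understates the change of the others. The median ratio of the neutrophil markers was highest in mouse 2, at 2.98, against 1.28, 1.07 and 1.44 in mice 1, 3 and 4. Mouse 2 had the lowest ratio in 6 of the 10 cholangiocyte and progenitor markers. S100a9, a calcium-binding protein of neutrophils, rose by 2.51 ± 0.30 (adjusted p = 0.00174, limma), while Csf3r, the receptor for G-CSF, had a fitted change of -0.12 ± 0.07. The part of neutrophil RNA in the order of the mice was not tested.

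Mesothelium, which covers the liver and also makes Krt7, Krt19 and Krt8, had 5 of 10 markers tested; 1 fell and 4 did not pass. Its summed level was 9.35 to 9.54 in Fra-1hep and 9.50 to 9.61 in control channels, and 3 of the 9 markers with a probe were above background on no array. Wt1 fell by 0.44 ± 0.10, with ratios of 0.05, -0.40, -0.48, -0.12 and -0.64, and Msln had 0.09 ± 0.07. Of the B cell and erythroid markers, whose cells carry CD24 too, 6 were tested; 1 rose and 3 fell. Vpreb3, a B cell gene, rose by 1.47 ± 0.13 (adjusted p = 0.000467, limma), while Hba-a1 was lower by 0.66 ± 0.14 and Alas2 by 0.37 ± 0.08 on the log2 scale. Their summed level, most of it Hba-a1, was 14.99 to 15.66 in Fra-1hep and 15.68 to 16.05 in control channels. Of 3 pancreas markers tested 1 rose, Ctrb1 by 0.29 ± 0.06, and Cel had 0.01 ± 0.08. Of 5 intestine markers 2 fell, Fabp2 by 0.81 ± 0.11 and Pigr by 0.79 ± 0.07, and 1 rose, Vil1, which met the filter through the Fra-1hep channel (control channel above background on 2 of 5 arrays); 5 of the 10 markers with a probe for each of these organs were above background on no array.

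Among the hepatocyte markers, Alb, Ttr, Serpina1a, Asgr1 and Trf were above 0 in all 4 mice and below 0 on the swapped array, while Fga, G6pc and Pck1 were above 0 on all 5 arrays. Of the 12, 3 rose, 1 fell, and the rest missed the threshold. The marker that fell was Tat, at -0.58 ± 0.18 (adjusted p = 0.0488, limma), with ratios of -0.75, -0.66, -0.13, 0.22 and -0.83. Hnf4a had -0.16 ± 0.07, Apoa1 -0.05 ± 0.08 and Cps1 0.01 ± 0.06. Median ratios of the 12 were 0.56, 0.49, 0.54 and 0.62 in mice 1 to 4 and -0.21 on the swapped array. Serpina1a rose by 0.29 ± 0.07 and Alb had 0.13 ± 0.07. The dye term takes up such differences. For Krt8 it was -0.32, and it cannot be told apart there from a deviation of the swapped array or its pool.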

How the data were processed

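Scanner files of 5 arrays hold spot intensity values, local backgrounds, flags scored 0 or 1 and log10 ratios of Cy5 over Cy3, all made by the authors in Agilent Feature Extraction (10.7.3.1 per the file headers, 10.7 per the submitters' processing notes). The planned mean signals were replaced by the median signals. The deposited table holds log2 ratios; over 23068 probes set against the scanner ratios it had slopes of 1 (mice) and -1 (swapped array), so it is Fra-1hep over control and not centred (medians 0.13, 0.084, 0.044, 0.13 and -0.042). Median signals were corrected by normexp (offset 50) and loess in limma 3.58.1 (R 4.3.3), leaving out 177 outlier spots. Probes that cleared the background in 1 channel or both on 3 or more arrays (28115), with a value on all 5 arrays, were kept; the brightest stood for its gene (21494 features). A RefSeq table (GRCm38.p6) named 26056 probes by accession. Genotype and dye were fitted with lmFit and eBayes on 3 residual and 4.02 prior degrees of freedom. The number of arrays limits the precision (median standard error 0.0662). The sources used here do not say whether litters or cages were shared. The p-values rest on the spread between these 4 mice, drawn by eBayes towards that of all features. In this fit the swapped array leaves no residual, so its own error is not measured. The named genes were every marker, up to 4 passing genes with the smallest p from each list with Spp1, Cftr and Cdh1 of the biliary list, and up to 2 of the highest level from each cell marker list; other genes named (Slc10a2, Aqp1, Thy1, Kit, S100a8, Mmp8, Mmp9, Pkp1, Vil1, Vpreb3, the hepatocyte markers other than Serpina1a and Alb, and the examples said to be so) were chosen after their values were seen, and 1 gene of the biliary list is not reported here. Alternatives changed the background correction, normalization, filter, probe rule, dye term, weights and the arrays used. The markers and lists were chosen with earlier results of these data known. The fit was tested on simulated data.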

Additional observations from a re-analysis of the deposited data

Results flagged for a closer look

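The neutrophil gene S100a8 stood apart in mouse 2, where its log2 ratio was 3.678 against 2.10, 2.01 and 2.27 in mice 1, 3 and 4 and 2.70 for the swapped pool. The gap from mouse 2 to the nearest mouse was above Dixon's 95% critical value for 4 samples. Of 42 genes examined this way, 1 was past that value, and chance gives about 1 in 20.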

How the results depend on the processing

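The count of markers past the threshold was 2 of 10. It was 1 of 8 tested when both channels had to be above background on all arrays, which left Dmbt1 and Epcam out, and 5 with no dye term; leaving out 1 array at a time gave 2 to 5, with 5 without mouse 2 and 4 without the swapped array. Dmbt1 and Wfdc2 passed under every setting in which they were tested. The count over the other lists was 40 of 90; it was 26 when the standard errors were enlarged for 5 control mice varying as the Fra-1hep mice do, and 33 to 45 with 1 array left out. Sox9 turned sign with median centring (-0.017), no dye term (-0.0094), array weights (-0.0015) and a slide term (-0.072), which equals leaving out mouse 1; with 1 array left out it ran from -0.072 to 0.094, with -0.023 without the swapped array. Epcam ran from -0.020 without the swapped array to 0.17 without mouse 2. Over all settings, the markers' own changes stayed on the same side of the threshold with the same sign in 140 cases, passed where they had not in 11 and turned sign in 7; the causes were not tested. No paired analysis was possible because every mouse was set against the same control pool and the groups share fewer than 2 replicate numbers. Signal over background limits Epcam and Dmbt1, which are dim in the Fra-1hep channel. With offset 0 in place of 50, Dmbt1 was -3.60.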
